A study of Mus musculus with 12 samples.

Results

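The mitochondrial ribosomal protein genes were taken from the deposited gene table as the protein-coding genes whose symbol is Mrpl or Mrps, a number and at most 1 letter. This gave 78 of the 56748 genes in the table, 49 named for the large subunit of the mitochondrial ribosome and 29 for the small one. By the known structures, 51 belong to the large subunit and 26 to the small one, since Mrps30 and Mrps18a sit in the large subunit and Mrps36 is a component of the ketoglutarate dehydrogenase complex. Of the 78, 77 had enough reads to be tested, and Mrpl53 had a count of 0 in all 12 libraries.

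RNA was measured in Ba/F3 cells, a mouse line labelled as pro-B cells that grows on interleukin-3 (IL-3), and every library came from cells with NRAS G12D, an active RAS protein. The 4 groups of 3 libraries each differed in the construct: ETV6 I209S P214L, ETV6 P214L or ETV6 WT, each with the fluorescent protein ZsGreen, or ZsGreen alone as the control. ETV6 is a transcriptional repressor of the ETS family; by the design, P214L gives it a nuclear export signal, I209S P214L takes that signal away again, and the question is whether the double mutant then acts as ETV6 WT does. After the sort on day 0 all cells were held without IL-3, with fresh medium on day 2 and harvest on day 3, so the ZsGreen cells were deprived of IL-3 too.

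Mitochondria carry their own ribosome, which translates the few proteins encoded by mitochondrial DNA, all of them subunits of the respiratory chain and the ATP synthase. Its RNAs are made inside the mitochondrion, while all its proteins are encoded in the nucleus, made in the cytosol and imported. Part of these proteins have relatives in bacterial ribosomes and the rest are specific to mitochondria.

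Libraries held 14301683 to 18607595 counts on genes, of which the 78 genes took 0.242% to 0.338%. Residual 18S ribosomal RNA took 1.35% to 5.90% of counts and mitochondrially encoded genes 1.01% to 1.35%. On the second principal component ZsGreen 1 lay at 70.7, against -10.2 and -7.09 for the other ZsGreen libraries. I209S P214L 1 (21.2) and ETV6 WT 1 (22.4) also lay apart from the others of their groups (-7.63 to -1.54), so counts below are also given without ZsGreen 1 or without these 3 libraries. Reads assigned to mouse Etv6 averaged 99.1 ± 12 CPM with I209S P214L, 103 ± 4.6 CPM with P214L, 109 ± 11 CPM with ETV6 WT and 81.7 ± 5.0 CPM with ZsGreen (SD, n = 3), so the control cells had Etv6 RNA too, and whether reads of the constructs are counted there is not given in the sources used here. Of 14 pro-B and B lineage markers, 3 passed the filter, and Igll1, Il7r, Ms4a1 and Rag1 were among those at 0 in all 12 libraries, so the labelled cell type rests here on Ptprc, Cd79a and Cd79b. Whether a group's 3 libraries came from separate cultures is not stated in the labels, so each p-value measures the spread between libraries, which may be technical.

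Summed over the 78 genes, the level was lower in cells with ETV6 I209S P214L or ETV6 WT than in ZsGreen cells, by 25.2% and 22.7%, and 5.92% lower with P214L. Levels here are CPM, counts scaled to a common library size with TMM factors. The sums were 2523, 2415 and 2447 CPM in the I209S P214L libraries, 3122, 3176 and 2988 CPM with P214L, 2615, 2605 and 2410 CPM with ETV6 WT, and 3409, 3277 and 3185 CPM with ZsGreen. Every I209S P214L and ETV6 WT library lay below every P214L and ZsGreen library, and the highest P214L library (3176 CPM) was just below the lowest ZsGreen library (3185 CPM). Group means were 2461 ± 55.6 CPM with I209S P214L, 3096 ± 96.8 CPM with P214L, 2543 ± 116 CPM with ETV6 WT and 3290 ± 113 CPM with ZsGreen (SD, n = 3). In bulk RNA, a lower content in each cell and a smaller share of cells with a high content cannot be told apart.

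**Figure D1:**
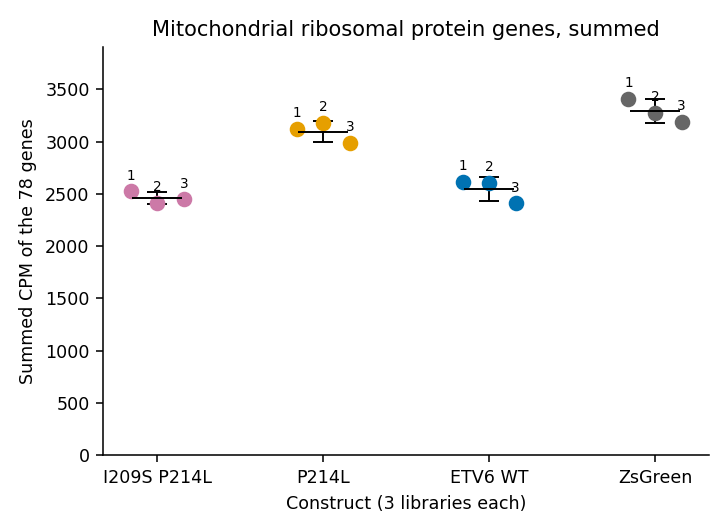
Summed CPM of the 78 mitochondrial ribosomal protein genes in each of the 12 libraries, by construct. Points are libraries with their replicate number, bars show mean and SD of 3 libraries, and the I209S P214L and ETV6 WT points sit between 2410 and 2615 CPM, below the P214L and ZsGreen points at 2988 to 3409 CPM.

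Gene by gene, the group mean was lowest with I209S P214L for 47 of the 77 tested genes and with ETV6 WT for 27. The mean was highest with ZsGreen for 52 genes and with P214L for 22. By the test of any difference among the 4 groups, 48 of the 77 differed, or 62.3%, beside 41% of all 14794 genes tested (edgeR's quasi-likelihood test, adjusted p under 0.05 after Benjamini-Hochberg adjustment over all genes tested). All adjusted p-values below are from this fit unless another tool is named.

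**Figure D2:**
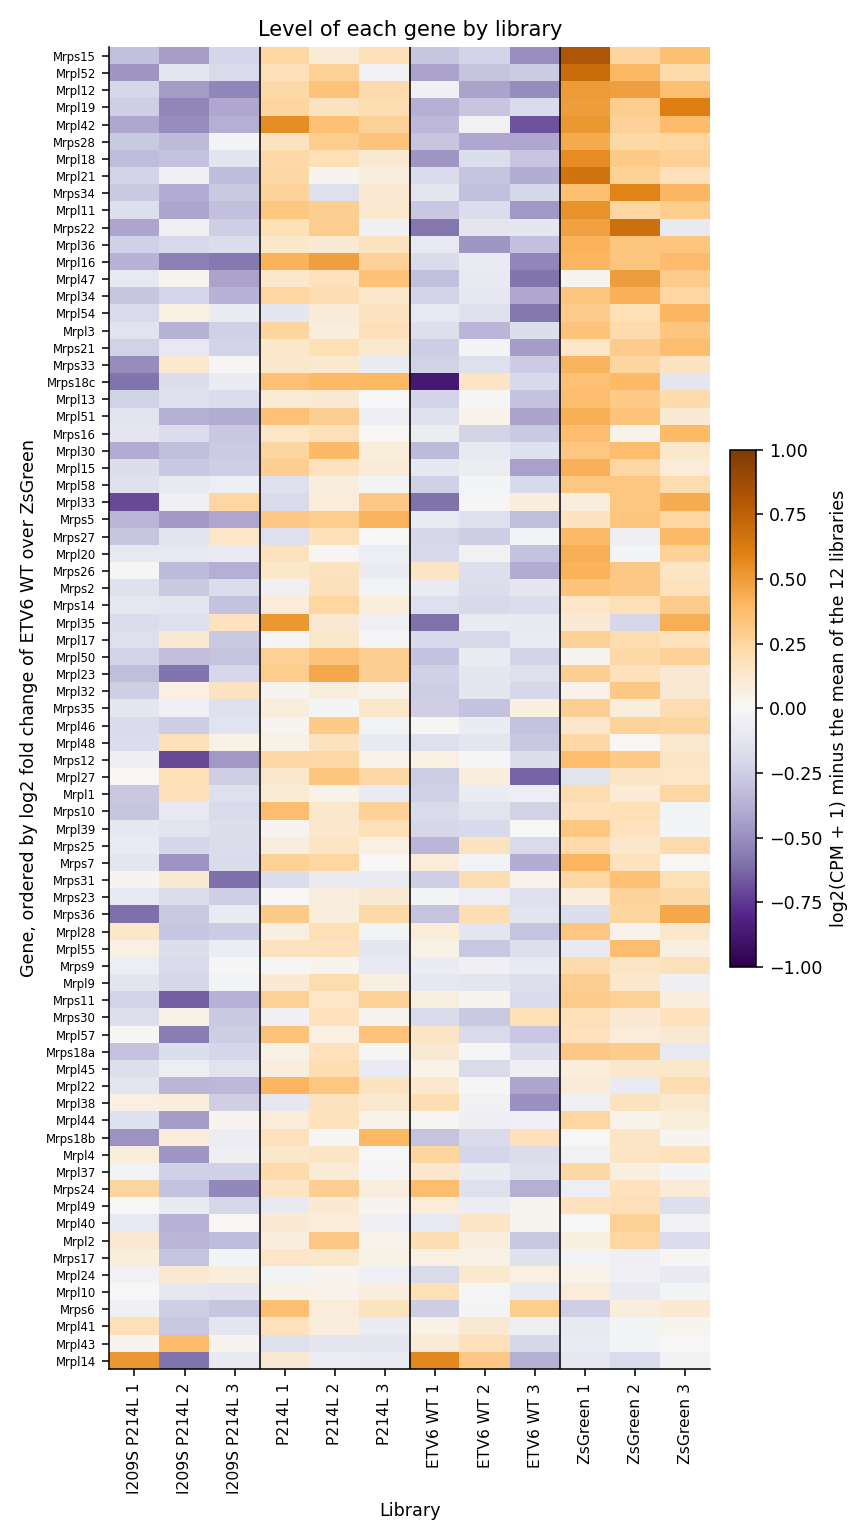
Level of each of the 77 tested genes in each library, as log2(CPM + 1) minus that gene's mean over the 12 libraries, with genes ordered by their log2 fold change of ETV6 WT over ZsGreen. Purple is below and orange above the gene's own mean, and for most genes the I209S P214L and ETV6 WT columns are purple and the ZsGreen columns orange.

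ETV6 WT against ZsGreen asks how these genes differ when ETV6 is added to cells that already have Etv6 RNA. With ETV6 WT, 44 of the 77 genes were lower and 0 higher, beside 18.2% of all genes called lower and 19.5% called higher. Unadjusted p-values under 0.05 gave 50 lower and 0 higher, beside 21.9% and 23.7% of all genes, and DESeq2 and limma-voom called 44 lower and 0 higher each. The median log2 fold change was -0.35, beside 0.03 over all genes, and 16 genes differed by more than 1.5-fold. The libraries did not overlap, with ETV6 WT below, for 45 genes (22% of all genes). Without ZsGreen 1, 38 genes were lower and 0 higher, and without the 3 libraries that lay apart, 42 and 0.

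The gene with the largest fall was Mrps15 (ENSMUSG00000028861; chromosome 4, 125940718 to 125949325 on mm39), whose protein corresponds to bacterial S15 and binds the small ribosomal RNA. Its level was 32.5, 29.5 and 34.7 CPM in the I209S P214L libraries, 48.0, 43.4 and 46.2 CPM with P214L, 33.0, 34.5 and 28.4 CPM with ETV6 WT and 71.7, 48.5 and 52.3 CPM with ZsGreen. All ETV6 WT and I209S P214L libraries were below all P214L libraries, which in turn were below all ZsGreen libraries, and ZsGreen 1 was the highest. The log2 fold change of ETV6 WT over ZsGreen was -0.85 ± 0.13 (SE, adjusted p = 4.52e-05), a level 44.5% lower.

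Next came Mrpl52 (chromosome 14, 54664366 to 54667213), a protein of the large subunit that bacteria lack, with 35.1, 45.3 and 42.9 CPM in the I209S P214L libraries, 56.1, 59.7 and 48.0 CPM with P214L, 36.3, 40.0 and 40.8 CPM with ETV6 WT and 80.6, 64.8 and 57.6 CPM with ZsGreen. ETV6 WT libraries were below every ZsGreen library, by -0.79 ± 0.13 on the log2 scale (adjusted p = 6.16e-05). Mrpl12 (chromosome 11, 120375439 to 120379891) forms the flexible stalk that calls in translation factors and is also reported to bind the mitochondrial RNA polymerase. It stood at 64.5, 54.3 and 51.4 CPM in the I209S P214L libraries, 87.3, 94.3 and 87.0 CPM with P214L, 72.2, 55.2 and 52.1 CPM with ETV6 WT and 106, 105 and 95.9 CPM with ZsGreen. Here too the ETV6 WT libraries lay below the ZsGreen libraries, by -0.78 ± 0.11 (adjusted p = 1.84e-05).

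Mrpl19 (chromosome 6, 81934832 to 81942939), the counterpart of bacterial L19 at the face between the subunits, had 33.4, 27.2 and 29.6 CPM in the I209S P214L libraries, 47.4, 44.7 and 45.9 CPM with P214L, 30.3, 32.4 and 34.8 CPM with ETV6 WT and 56.4, 49.0 and 61.3 CPM with ZsGreen. The groups formed a lower pair, I209S P214L and ETV6 WT, and a higher pair with no overlap between them, and ETV6 WT differed from ZsGreen by -0.77 ± 0.11 (adjusted p = 1.27e-05). Mrpl42 (chromosome 10, 95316667 to 95337802), specific to mitochondria, had 15.9, 14.9 and 16.3 CPM in the I209S P214L libraries, 31.9, 27.8 and 26.1 CPM with P214L, 16.7, 20.9 and 13.0 CPM with ETV6 WT and 31.1, 26.1 and 28.3 CPM with ZsGreen. Its P214L and ZsGreen libraries overlapped, while ETV6 WT was lower than ZsGreen by -0.76 ± 0.15 (adjusted p = 0.000501). None of the calls on these 5 genes in ETV6 WT cells was lost when any 1 library was left out.

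**Figure D3:**
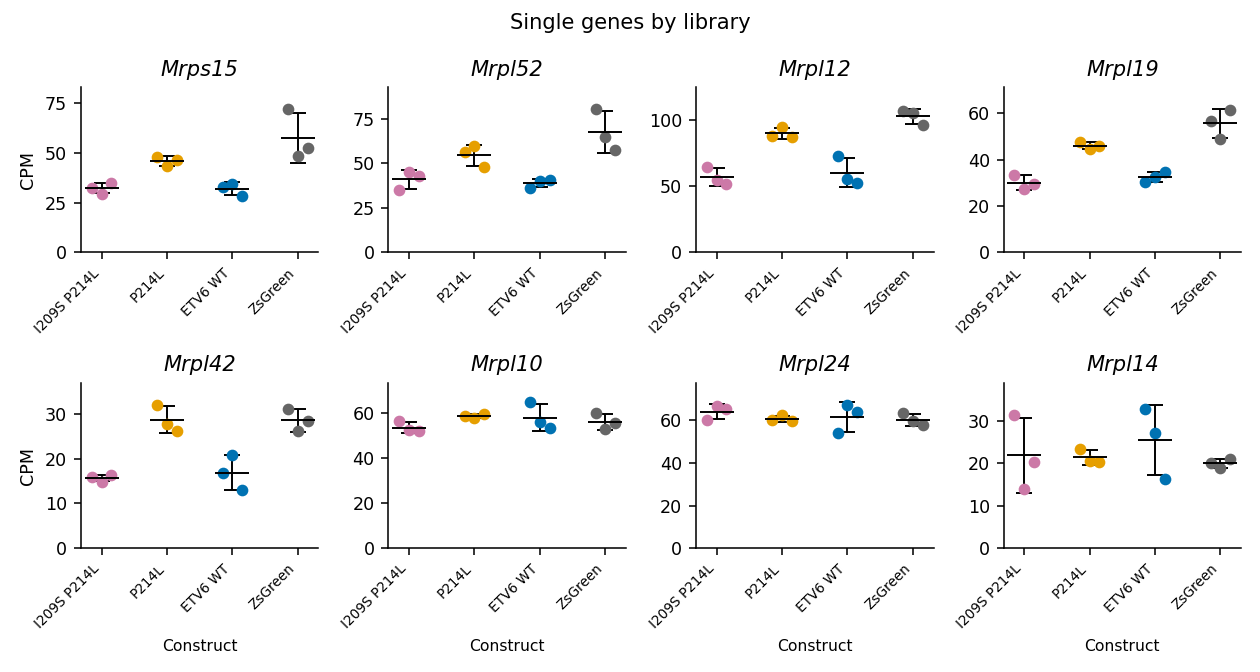
CPM of 8 genes by library and construct, each panel with its own axis starting at 0; points are libraries, and bars show mean and SD of 3. The 5 genes with the largest falls in ETV6 WT over ZsGreen (Mrps15, Mrpl52, Mrpl12, Mrpl19 and Mrpl42) are low with I209S P214L and ETV6 WT, while for Mrpl10, Mrpl24 and Mrpl14 the ETV6 WT and ZsGreen libraries overlap.

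At the other end, 7 genes had a log2 fold change above 0 in ETV6 WT over ZsGreen, and none of these was called. Mrpl14, of the large subunit core, had 31.3, 14.0 and 20.2 CPM in the I209S P214L libraries, 23.4, 20.6 and 20.3 CPM with P214L, 32.7, 27.1 and 16.4 CPM with ETV6 WT and 20.0, 18.9 and 21.0 CPM with ZsGreen. Its ETV6 WT and I209S P214L libraries were widely spread and covered the ZsGreen range (0.34 ± 0.24, adjusted p = 0.279). Mrpl24, which in bacteria starts the assembly of the large subunit, had 60.1, 66.8 and 65.1 CPM in the I209S P214L libraries, 60.2, 62.4 and 59.7 CPM with P214L, 53.8, 67.0 and 64.0 CPM with ETV6 WT and 63.3, 59.6 and 57.7 CPM with ZsGreen, and all 4 groups overlapped (0.03 ± 0.09, adjusted p = 0.798). Mrpl43, specific to mitochondria, averaged 27.4 ± 4.21 CPM with I209S P214L, 22.5 ± 0.31 CPM with P214L, 25.2 ± 3.57 CPM with ETV6 WT and 23.9 ± 0.71 CPM with ZsGreen (0.08, adjusted p = 0.688). These 3 genes were singled out after their values were seen.

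By subunit, 27 of 50 tested genes of the large subunit were lower with ETV6 WT (median -0.36) and 17 of 26 of the small subunit (median -0.38). Among proteins with a bacterial relative, 28 of 46 were lower (median -0.40), and 16 of 30 among those specific to mitochondria (median -0.30). These are counts, and no test of the difference between the classes was made.

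The stalk of the large subunit, where translation factors dock, rests on Mrpl10 and Mrpl11 and carries Mrpl12. Mrpl10, the anchor for Mrpl12, had 56.4, 52.6 and 52.0 CPM in the I209S P214L libraries, 58.8, 58.0 and 59.6 CPM with P214L, 65.0, 56.1 and 53.3 CPM with ETV6 WT and 60.2, 53.0 and 55.5 CPM with ZsGreen. ETV6 WT and ZsGreen libraries overlapped, and it was called in none of the 6 comparisons (ETV6 WT over ZsGreen 0.05 ± 0.09, adjusted p = 0.719; 95% interval -0.14 to 0.23). Mrpl11, which with the ribosomal RNA forms the stalk base, had 29.0, 24.1 and 26.1 CPM in the I209S P214L libraries, 41.0, 39.8 and 35.4 CPM with P214L, 26.6, 28.7 and 23.3 CPM with ETV6 WT and 47.7, 38.8 and 40.1 CPM with ZsGreen. All its ETV6 WT libraries were below all its ZsGreen libraries (-0.69 ± 0.12, adjusted p = 0.000127). The stalk-side protein Mrpl54 had 22.2, 26.7 and 24.2 CPM in the I209S P214L libraries, 23.5, 27.5 and 28.6 CPM with P214L, 23.9, 22.9 and 16.8 CPM with ETV6 WT and 31.7, 29.5 and 34.0 CPM with ZsGreen, and was lower with ETV6 WT by -0.59 ± 0.14 (adjusted p = 0.00202).

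Mrpl53 (chromosome 6, 83086021 to 83086920) had 0 counts in every group, which with 3 counts as the limit allows up to 0.0609 CPM with I209S P214L, 0.0643 CPM with P214L, 0.0569 CPM with ETV6 WT and 0.0608 CPM with ZsGreen, for counting error only. In the deposited annotation its span overlaps the gene Gm42688 on the same strand and the long noncoding RNA Ccdc142os on the other. Gm42688 averaged 3.65 ± 0.98 CPM with I209S P214L, 3.50 ± 0.66 CPM with P214L, 2.83 ± 0.67 CPM with ETV6 WT and 3.36 ± 0.62 CPM with ZsGreen. How reads in such an overlap were assigned is not given in the sources used here.

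In the decoding centre, Mrps12 had 25.1, 15.6 and 18.6 CPM in the I209S P214L libraries, 30.8, 30.8 and 26.9 CPM with P214L, 27.2, 25.8 and 23.1 CPM with ETV6 WT and 34.0, 32.4 and 29.0 CPM with ZsGreen. Its lowest values were those of I209S P214L 2 and 3, and ETV6 WT libraries were all below ZsGreen libraries without reaching the threshold (-0.33 ± 0.14, adjusted p = 0.0837). Mrps12 was called lower there with only the 2 groups compared (0.0451), with the replicate number as a block (0.0475), without I209S P214L 1 (0.0293) or without I209S P214L 2 (0.0434). Mrpl58, a built-in peptidyl-tRNA hydrolase that frees stalled chains, had 18.0, 18.7 and 19.1 CPM in the I209S P214L libraries, 17.9, 21.1 and 19.5 CPM with P214L, 16.8, 19.7 and 17.2 CPM with ETV6 WT and 25.2, 25.3 and 23.3 CPM with ZsGreen. ZsGreen libraries were above all 9 others, and ETV6 WT was lower by -0.46 ± 0.12 (adjusted p = 0.00386).

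Near the exit tunnel, where the new chain leaves, Mrpl44 had 29.6, 23.8 and 33.3 CPM in the I209S P214L libraries, 35.0, 37.2 and 34.0 CPM with P214L, 33.1, 31.7 and 32.0 CPM with ETV6 WT and 39.1, 33.8 and 34.8 CPM with ZsGreen. Mrpl45, which fixes the ribosome to the inner membrane, had 52.3, 56.2 and 53.0 CPM in the I209S P214L libraries, 61.7, 67.5 and 55.1 CPM with P214L, 60.3, 51.1 and 56.6 CPM with ETV6 WT and 61.8, 64.6 and 64.4 CPM with ZsGreen. For both, all ETV6 WT libraries were below all ZsGreen libraries by a small distance, and neither was called (-0.15 ± 0.11, adjusted p = 0.318, and -0.18 ± 0.09, adjusted p = 0.116). Their 95% intervals ran over -0.40 to 0.09 for Mrpl44 and -0.37 to 0.0031 for Mrpl45. Without the 3 libraries that lay apart, Mrpl45 was called (-0.27, adjusted p = 0.0487).

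The 3 relatives of bacterial S18 occupy different places, Mrps18c in the small subunit at the S18 site, Mrps18b elsewhere in the small subunit and Mrps18a in the large one. By their places, Mrps18a and Mrps18b were counted above with the proteins specific to mitochondria. Mrps18a had 30.3, 33.5 and 32.3 CPM in the I209S P214L libraries, 38.9, 42.6 and 37.9 CPM with P214L, 40.7, 37.3 and 33.3 CPM with ETV6 WT and 47.2, 46.7 and 35.1 CPM with ZsGreen. Mrps18b had 10.6, 16.3 and 14.5 CPM in the I209S P214L libraries, 17.4, 15.4 and 20.4 CPM with P214L, 12.3, 13.2 and 17.5 CPM with ETV6 WT and 15.2, 17.1 and 15.6 CPM with ZsGreen. Mrps18c had 12.9, 17.6 and 18.9 CPM in the I209S P214L libraries, 25.8, 26.4 and 26.5 CPM with P214L, 10.4, 22.3 and 17.3 CPM with ETV6 WT and 25.8, 26.3 and 18.2 CPM with ZsGreen. None of the 3 was called in ETV6 WT over ZsGreen (-0.21, -0.15 and -0.49; adjusted p = 0.173, 0.537 and 0.0801). Without ZsGreen 3, Mrps18a was called (-0.35, adjusted p = 0.0169). Mrps18c was called without ETV6 WT 2 (-0.75, adjusted p = 0.0122), without ZsGreen 3 (-0.66, adjusted p = 0.0310), with no filter on low counts (0.0107) and with the replicate block (0.0391). For Mrps18c, ETV6 WT 1 and ZsGreen 3 were each low for their group, and the groups overlapped. Of the genes whose name and place differ, Mrps30 averaged 30.2 ± 3.56 CPM with I209S P214L, 34.2 ± 2.72 CPM with P214L, 31.3 ± 5.82 CPM with ETV6 WT and 36.7 ± 1.14 CPM with ZsGreen. Mrps36 averaged 11.8 ± 2.28 CPM with I209S P214L, 17.2 ± 1.44 CPM with P214L, 14.1 ± 2.71 CPM with ETV6 WT and 17.1 ± 3.83 CPM with ZsGreen, and neither was called with ETV6 WT (adjusted p = 0.167 and 0.272). Mrps30, at -0.23, was called without ETV6 WT 3 (-0.41, adjusted p = 0.0163).

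Levels per length spanned a wide range within one ribosome. In FPKM, fragment counts scaled to gene length and library size, the tested genes ran from 1.83 for Mrpl48 to 61.2 for Mrpl34, averaged over the 12 libraries. The highest were Mrpl34, Mrpl12 at 49.9, Mrpl52 at 45.3 and Mrps21 at 43.3 FPKM, and the lowest were Mrpl48, Mrps31 at 2.47, Mrpl35 at 2.86 and Mrpl15 at 3.97 FPKM. The deposited length is that of the whole gene model, 607 bases for Mrpl34 and 8152 for Mrpl48, so a model with long alternative exons lowers its FPKM.

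The 4 genes of highest level were all lower with ETV6 WT than with ZsGreen. Mrpl34 had 30.0, 31.6 and 28.4 CPM in the I209S P214L libraries, 43.7, 42.7 and 40.3 CPM with P214L, 31.4, 34.0 and 27.4 CPM with ETV6 WT and 46.5, 49.8 and 43.8 CPM with ZsGreen, with ETV6 WT below ZsGreen throughout (-0.60, adjusted p = 0.000129). Mrps21 had 27.0, 29.7 and 27.1 CPM in the I209S P214L libraries, 35.1, 36.6 and 34.6 CPM with P214L, 26.5, 31.2 and 23.1 CPM with ETV6 WT and 35.2, 39.5 and 41.5 CPM with ZsGreen, again without overlap of ETV6 WT and ZsGreen (-0.52, adjusted p = 0.00128). Of the 4 of lowest level, Mrpl15 was the one called lower, with 29.6, 27.4 and 28.2 CPM in the I209S P214L libraries, 41.0, 37.9 and 35.8 CPM with P214L, 31.0, 31.9 and 24.5 CPM with ETV6 WT and 45.4, 39.6 and 35.8 CPM with ZsGreen (-0.47, adjusted p = 0.00407). Mrpl48 averaged 13.1 ± 0.79 CPM with ETV6 WT and 16.4 ± 1.42 CPM with ZsGreen, Mrps31 8.14 ± 1.41 CPM with ETV6 WT and 9.89 ± 0.63 CPM with ZsGreen, and Mrpl35 9.82 ± 2.06 CPM with ETV6 WT and 13.0 ± 3.10 CPM with ZsGreen. These 3 were not called (-0.33 ± 0.14, -0.28 ± 0.21 and -0.40 ± 0.21). Reads of Mrpl48, Mrpl27, Mrpl23 and Mrps36 may be shared with processed pseudogenes, of which Mrpl48-ps had 8.52 ± 2.64 CPM with ETV6 WT and 10.1 ± 0.88 CPM with ZsGreen, so the split of their reads is uncertain. Because strandedness is not known and 36 of the 78 genes overlap a gene on the other strand, 12 one on the same strand, overlap was also set aside: of the 37 tested genes that overlap no other gene, 23 were lower and 0 higher.

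I209S P214L against ZsGreen sets the double mutant against the same control libraries as ETV6 WT. With the double mutant, 50 of the 77 genes were lower and 0 higher, beside 20.7% of all genes called lower and 20.8% called higher. The median log2 fold change was -0.39, beside 0.03 over all genes, and 17 genes differed by more than 1.5-fold. Without ZsGreen 1, 40 were lower and 0 higher, and without the 3 libraries that lay apart, 44 and 0. The genes with the largest falls were Mrpl19 (-0.88 ± 0.11, adjusted p = 2.42e-06), Mrpl16 (-0.88 ± 0.11, adjusted p = 2.54e-06), Mrpl42 (-0.86 ± 0.15, adjusted p = 0.000142) and Mrpl12 (-0.85 ± 0.11, adjusted p = 5.75e-06). Mrpl16, which matures the site where peptide bonds are made, had 46.6, 40.7 and 40.0 CPM in the I209S P214L libraries, 80.6, 84.7 and 72.5 CPM with P214L, 52.8, 56.7 and 41.4 CPM with ETV6 WT and 80.0, 76.1 and 78.5 CPM with ZsGreen. Its I209S P214L and ETV6 WT libraries were all below the other 6, and its P214L and ZsGreen libraries overlapped. By class, 29 of 46 genes with a bacterial relative were lower (63.0%, median -0.46). Of those specific to mitochondria, 20 of 30 were lower (66.7%, median -0.36), here the larger share.

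Some calls of I209S P214L over ZsGreen lay near the threshold and were lost when any 1 of several libraries was left out. Mrpl54 (-0.38, adjusted p = 0.0295) was not called without I209S P214L 1 (0.103), I209S P214L 3 (0.0678), ZsGreen 1 (0.0515) or ZsGreen 3 (0.0886), with fold changes of -0.40 to -0.32. Mrpl44 (-0.31, adjusted p = 0.0394) was not called without I209S P214L 1 (0.0596), I209S P214L 2 (0.177), ZsGreen 1 (0.123) or ETV6 WT 2 (0.0514), at -0.33 to -0.20. It was also not called with total counts as the scaling (0.0682), no filter (0.0695) or only the 2 groups compared (0.0838). Mrpl45 (-0.24, adjusted p = 0.0378) was not called without I209S P214L 1 (0.0990), I209S P214L 3 (0.0845), ZsGreen 2 (0.0751) or ZsGreen 3 (0.0662), at -0.24 to -0.22, nor with total counts (0.0633) or no filter (0.0936). Mrps36 (-0.54, adjusted p = 0.0293) was not called without I209S P214L 1 (0.131), I209S P214L 2 (0.0534), ZsGreen 2 (0.0691) or ZsGreen 3 (0.139), at -0.57 to -0.40, nor with only the 2 groups compared (0.0541). Mrps18a was lower by -0.43 (adjusted p = 0.00749), and not called without the first libraries of ZsGreen, ETV6 WT and I209S P214L together (0.0574). Mrps12 was lower with I209S P214L by -0.68 (adjusted p = 0.000985) and Mrpl58 by -0.40 (adjusted p = 0.00884), and both calls held with any 1 library left out.

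P214L against ZsGreen, where ETV6 carries the export signal, gave no call on these genes. Of the 77, 0 were lower and 0 higher, beside 1.61% of all genes called lower and 3.47% called higher. At an unadjusted p under 0.05, 11 were lower and 0 higher, beside 7.81% and 10.1% of all genes. DESeq2 called 1 lower (Mrps34, adjusted p = 0.0365) and limma-voom called 0. The smallest edgeR adjusted p was 0.0747, also for Mrps34, a protein that the small subunit needs for its stability, with 21.4, 19.5 and 21.4 CPM in the I209S P214L libraries, 31.4, 23.3 and 28.2 CPM with P214L, 23.8, 20.9 and 22.4 CPM with ETV6 WT and 33.8, 39.8 and 34.7 CPM with ZsGreen. All P214L libraries of Mrps34 were below all ZsGreen libraries (-0.38 ± 0.12), but above all I209S P214L libraries and, but for P214L 2, above all ETV6 WT libraries. The median log2 fold change over the 77 genes was -0.08, beside 0.01 over all genes. For 69 of the 77, the 95% interval of the fold change stayed within 1.5-fold either way, 5 reached beyond it downward and 3 upward.

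**Figure D4:**
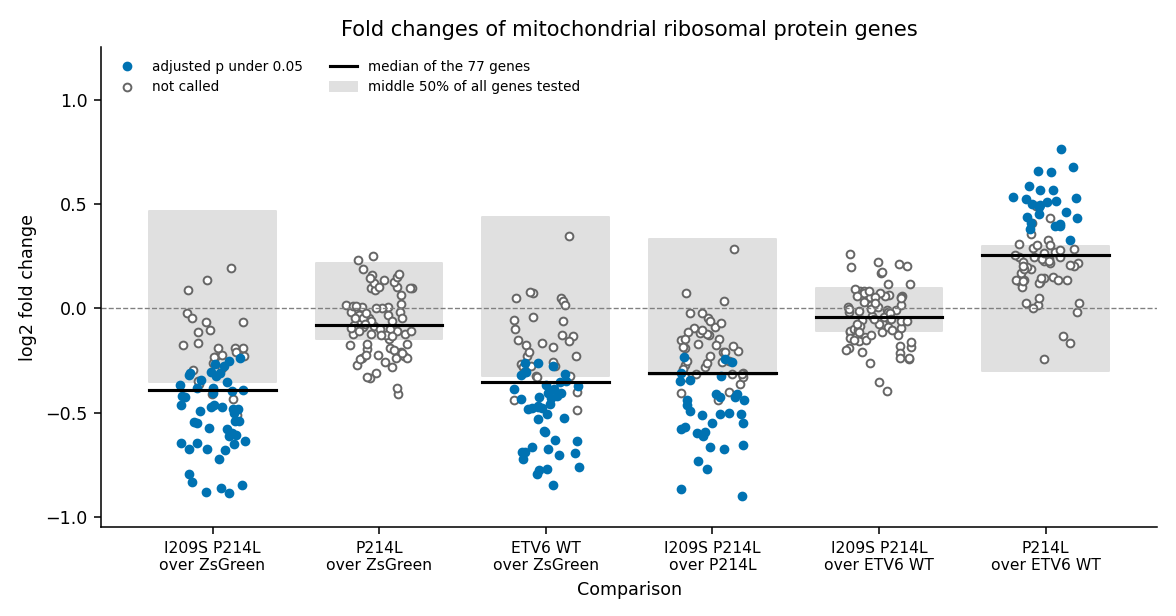
Log2 fold changes of the 77 tested genes in the 6 comparisons, with filled points called at an adjusted p under 0.05. The black line is the median of the 77 genes and the grey box spans the quartiles of all genes tested; the median lies at -0.39, -0.35 and -0.31 in the comparisons of I209S P214L or ETV6 WT with ZsGreen and of I209S P214L with P214L, and at -0.08 and -0.04 in those with no call.

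I209S P214L against P214L asks what differs when I209S is added. With the double mutant, 33 of the 77 genes were lower and 0 higher, beside 17.1% of all genes called lower and 15.9% called higher, with a median of -0.31 beside 0.0042 over all genes. The genes with the largest falls were Mrpl16 (-0.90 ± 0.11, adjusted p = 3.08e-06), Mrpl42 (-0.87 ± 0.15, adjusted p = 0.000193) and Mrps5 (-0.77 ± 0.10, adjusted p = 5.64e-06). Mrps5, the counterpart of bacterial S5 near the decoding centre, had 30.7, 28.2 and 29.3 CPM in the I209S P214L libraries, 49.3, 48.5 and 52.6 CPM with P214L, 37.2, 35.5 and 31.3 CPM with ETV6 WT and 44.1, 49.7 and 46.9 CPM with ZsGreen. Both ETV6 WT and I209S P214L libraries were below every P214L and ZsGreen library. By class, 25 of 46 genes with a bacterial relative were lower (median -0.34) and 7 of 30 specific to mitochondria (median -0.25).

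Among the genes followed by name, some of these calls lay near the threshold and were lost when any 1 of several libraries was left out. Mrpl52 (-0.41, adjusted p = 0.0166) was not called without P214L 1 (0.0531), P214L 2 (0.0875) or I209S P214L 1 (0.0764), at -0.40 to -0.32. Mrps21 (-0.34, adjusted p = 0.0274) was not called without any 1 of the P214L libraries (0.0622, 0.0952 and 0.0588), I209S P214L 1 (0.0766) or I209S P214L 3 (0.0870), at -0.36 to -0.32. Mrps18c (-0.67, adjusted p = 0.0202) was not called without P214L 2 (0.0574), P214L 3 (0.0564) or I209S P214L 1 (0.0846), at -0.67 to -0.53. Mrps36 (-0.55, adjusted p = 0.0333) was not called without P214L 1 (0.111), P214L 3 (0.0849), I209S P214L 1 (0.141) or I209S P214L 2 (0.0653), at -0.57 to -0.41.

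P214L against ETV6 WT gave 25 of the 77 genes higher and 0 lower, beside 14.6% of all genes called higher and 14.6% called lower. The median log2 fold change was 0.26, beside -0.0017 over all genes, and 4 genes differed by more than 1.5-fold. The largest rises were those of Mrpl42 (0.76 ± 0.15, adjusted p = 0.00071), Mrps28 (0.68 ± 0.13, adjusted p = 0.000676), Mrpl16 (0.66 ± 0.10, adjusted p = 0.000109) and Mrps18c (0.65 ± 0.21, adjusted p = 0.0265). The call on Mrps18c was lost without ETV6 WT 1 (0.41, adjusted p = 0.111), ETV6 WT 3 (0.0513) or any 1 of the P214L libraries (0.0597, 0.0708 and 0.0701). Mrpl15 (0.39, adjusted p = 0.0175) was not called without ETV6 WT 3 (0.0961) or P214L 1 (0.0769), and Mrps21 (0.40, adjusted p = 0.0137) not without ETV6 WT 3 (0.0815) or P214L 2 (0.0557). Of the bacterial relatives 21 of 46 were higher, and 4 of 30 of the genes specific to mitochondria.

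I209S P214L against ETV6 WT asks whether the double mutant and the wild type differ. Of the 77 genes, 0 were lower and 0 higher, beside 0.0203% of all genes called lower and 0.0135% called higher. At an unadjusted p under 0.05, 4 were lower with I209S P214L (Mrpl16 -0.24, Mrps11 -0.39, Mrps12 -0.35 and Mrps5 -0.24) and 0 higher, beside 2.18% and 1.28% of all genes, and DESeq2 and limma-voom called 0. The median was -0.04 (-0.02 without ETV6 WT 1 and -0.06 without ETV6 WT 3), and the fold changes ran from -0.39 to 0.26. For 69 of the 77 the 95% interval stayed within 1.5-fold either way, and for the other 8 it reached beyond that on 1 side. Mrps11, of the small subunit's platform, had 17.3, 12.6 and 15.6 CPM in the I209S P214L libraries, 25.0, 22.7 and 24.8 CPM with P214L, 21.5, 20.7 and 17.9 CPM with ETV6 WT and 25.3, 24.9 and 21.6 CPM with ZsGreen, with all I209S P214L libraries below all ETV6 WT libraries.

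ETV6 WT over ZsGreen and I209S P214L over P214L have no library in common, so their values can be set against each other. They are not fully separate, since both come from 1 fit with a shared estimate of the spread. Deviations from the group means of ETV6 WT and I209S P214L libraries also correlated by 0.528, 0.0786 and 0.254 for numbers 1, 2 and 3. Of the 44 genes lower with ETV6 WT, 26 (59.1%) were also lower with I209S P214L over P214L, and these are 78.8% of the 33 lower there. Over all genes tested the same shares were 73.4% and 78.1%. The log2 fold changes of the 77 genes in the 2 comparisons had Pearson's r = 0.52 and Spearman's rho = 0.46 (n = 77 genes, which are not independent replicates and share depth and scaling), beside r = 0.70 over all genes.

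**Figure D5:**
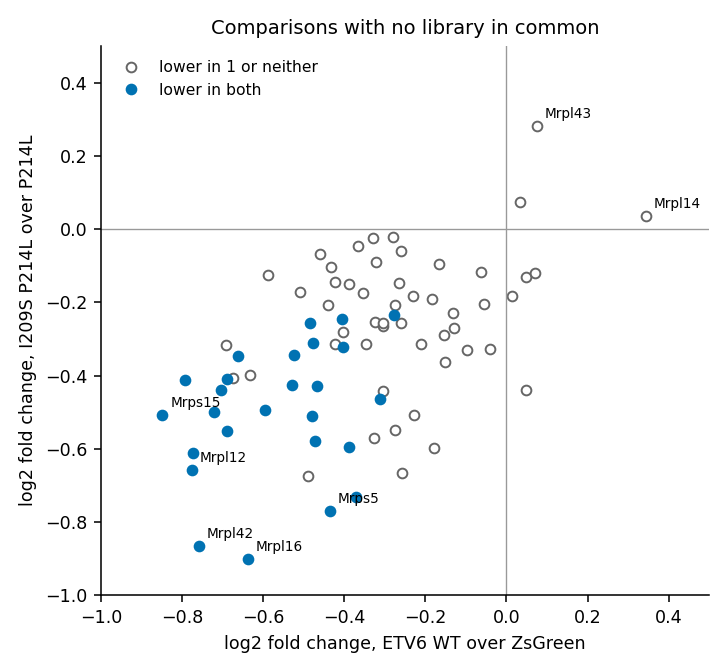
Log2 fold change of I209S P214L over P214L (vertical axis) against that of ETV6 WT over ZsGreen (horizontal axis) for the 77 tested genes, with filled points called lower in both. Most points lie below 0 on both axes, with Mrpl42 and Mrpl16 farthest down and Mrpl14 and Mrpl43 on the positive side of both axes.

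The genes were also compared by position, which the choice of genes did not use. The 78 genes lie on 17 chromosomes, with 11 of them on chromosome 11. A protein-coding neighbour that starts head to head, on the other strand within 1000 bases, was found for 32 of the 78 (41%), against 2320 of all 21970 protein-coding genes (10.6%). These are not like sets, since 77 of the 78 genes had enough reads to be tested, but only 11312 of the 21970. The share among the 11312 was not computed. In 17 pairs both genes were tested and their spans did not overlap. With ETV6 WT over ZsGreen, both were lower in 3 pairs, the ribosomal gene alone in 5 and the neighbour alone in 3. In 2 pairs the neighbour was higher and the ribosomal gene not called, and in 4 neither was called. Of all genes tested, 18.2% were called lower and 19.5% higher in this comparison. How often both genes of such a pair are lower over all genes was not computed.

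Such pairs include Mrps12 and Sars2, the mitochondrial seryl-tRNA synthetase, whose starts lie 172 bases apart (-0.33, not called, and -0.49, adjusted p = 0.00258). Mrpl51 and the condensin gene Ncapd2, 100 bases apart, were both lower (-0.48, adjusted p = 0.00714, and -0.48, adjusted p = 6.47e-06). Mrpl30 and Mitd1, 66 bases apart, were both lower as well (-0.47, adjusted p = 0.000688, and -0.76, adjusted p = 0.000218), as were Mrpl32 and the proteasome gene Psma2, 75 bases apart (-0.37, adjusted p = 0.0307, and -0.37, adjusted p = 0.00209). The call on Mrpl32 was lost without ETV6 WT 1 (0.0890), ETV6 WT 3 (0.0711) or ZsGreen 2 (0.122), and with no filter on low counts (0.0855). Mrpl51, Mrpl30 and Mrpl32 make up the 3 pairs with both lower. Among the 5 pairs with the ribosomal gene alone lower were Mrps34 and Eme2 (-0.69 and 0.13, adjusted p = 0.000177 and 0.713). Mrpl54 and Apba3 (-0.59 and 0.22) and Mrps5 and Zfp661 (-0.44 and 0.19) were also among them, each neighbour not called. Next to Mrpl2, which was not called (-0.04), Klc4 was higher (0.64, adjusted p = 0.000278). These pairs were picked after their values were seen.

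Promoters were read because ETV6 belongs to the ETS family, whose members share a core recognition sequence. A promoter sequence from RefSeq, 250 bases before to 50 after the annotated start on GRCm38.p6, was matched by symbol for 69 of the 78 genes. The ETS sequence CCGGAAG was searched on both strands as an exact run, so windows without it can hold shorter or variant ETS sequences. It was found in 25 of the 69 windows (36.2%), against 19.9% of 9076 windows of tested protein-coding genes and 9.12% of all 27025 windows. The YY1 sequence AAGATGGC was in 12 (17.4%, against 5.08% of tested genes), the palindromic NRF1 consensus in 3 (4.35%, against 2.28%) and the E-box CACGTG, bound by MYC among others, in 5 (7.25%, against 9.98%). With ETV6 WT over ZsGreen the median log2 fold change was -0.45 for the 24 tested genes with CCGGAAG, of which 15 were lower. The 44 genes without CCGGAAG had a median of -0.30, and 22 of them were lower. For YY1 the medians were -0.315 for 12 genes with it (4 lower) and -0.34 for 56 without it (33 lower). For NRF1 they were -0.31 for 3 genes with it (3 lower) and -0.33 for 65 without it (34 lower). For the E-box they were -0.42 for 5 genes with it (2 lower) and -0.33 for 63 without it (35 lower). A match is a run of letters, not a site shown to be bound, and none of these differences was tested.

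Below are the 250 bases before the start, 5′ to 3′ on the gene's strand, with CCGGAAG (or CTTCCGG where it reads on the other strand) in capitals. They show the 3 genes with CCGGAAG in these bases and the largest falls, and the gene with the largest fall and no such match. The last 2 are the genes with a match in these bases whose fold change was nearest to 0.
Mrpl52: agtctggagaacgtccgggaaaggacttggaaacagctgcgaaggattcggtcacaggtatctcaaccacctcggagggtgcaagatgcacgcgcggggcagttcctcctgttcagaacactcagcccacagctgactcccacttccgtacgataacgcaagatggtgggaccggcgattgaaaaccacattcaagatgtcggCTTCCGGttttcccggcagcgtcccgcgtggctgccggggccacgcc
Mrpl18: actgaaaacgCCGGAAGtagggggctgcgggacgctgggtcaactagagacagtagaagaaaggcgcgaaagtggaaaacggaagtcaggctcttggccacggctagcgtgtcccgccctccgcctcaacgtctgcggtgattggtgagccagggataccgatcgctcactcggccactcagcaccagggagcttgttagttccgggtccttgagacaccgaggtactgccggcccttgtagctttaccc
Mrps22: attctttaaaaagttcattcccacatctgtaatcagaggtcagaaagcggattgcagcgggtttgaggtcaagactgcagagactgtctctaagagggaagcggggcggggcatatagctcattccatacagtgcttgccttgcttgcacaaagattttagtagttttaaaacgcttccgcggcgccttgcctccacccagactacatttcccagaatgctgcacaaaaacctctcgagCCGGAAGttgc
Mrps15: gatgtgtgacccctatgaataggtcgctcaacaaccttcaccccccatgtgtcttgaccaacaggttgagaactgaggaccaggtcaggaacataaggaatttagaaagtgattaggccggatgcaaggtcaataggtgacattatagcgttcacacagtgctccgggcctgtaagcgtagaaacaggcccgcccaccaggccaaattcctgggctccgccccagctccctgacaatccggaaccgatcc
Mrpl43: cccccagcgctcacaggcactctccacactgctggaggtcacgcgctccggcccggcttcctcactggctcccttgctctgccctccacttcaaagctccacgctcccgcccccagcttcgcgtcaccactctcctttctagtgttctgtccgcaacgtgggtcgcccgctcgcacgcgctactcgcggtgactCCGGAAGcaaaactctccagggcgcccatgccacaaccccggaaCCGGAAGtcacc
Mrpl22: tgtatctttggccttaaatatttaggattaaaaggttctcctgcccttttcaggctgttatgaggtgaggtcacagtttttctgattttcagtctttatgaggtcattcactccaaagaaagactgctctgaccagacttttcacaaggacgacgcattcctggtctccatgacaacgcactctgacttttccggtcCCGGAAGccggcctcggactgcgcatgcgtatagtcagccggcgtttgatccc
The sequences lie, on GRCm38.p6, at chr14:54426659-54426908 for Mrpl52 (plus strand), chr17:12916092-12916341 for Mrpl18 (minus strand), chr9:98601680-98601929 for Mrps22 (minus strand), chr4:126046678-126046927 for Mrps15 (plus strand), chr19:45006443-45006692 for Mrpl43 (minus strand) and chr11:58171414-58171663 for Mrpl22 (plus strand). Mrpl18, the counterpart of bacterial L18, was lower by -0.71 in ETV6 WT over ZsGreen and Mrps22 by -0.67. The call on Mrps22 was lost without the first libraries of ZsGreen, ETV6 WT and I209S P214L together (adjusted p = 0.0528). Mrpl52 was lower by -0.79 and Mrps15 by -0.85. The bases of Mrps15 hold no CCGGAAG, but they do hold the shorter ccggaa. Mrpl43, with 2 matches in these bases, had 0.08, and Mrpl22, with 1, had -0.18, and neither was called (adjusted p = 0.688 and 0.398).

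Other parts of mitochondrial gene expression were counted as whole lists for ETV6 WT over ZsGreen, beside 18.2% of all genes called lower and 19.5% called higher. Of 5 mitochondrial ribosomal proteins with other names, 2 were lower and 0 higher, namely Aurkaip1 (-0.40, adjusted p = 0.00249) and Chchd1 (-0.53, adjusted p = 0.00668). Of 26 assembly factors 3 were lower and 1 higher (11.5% lower, median -0.14), a smaller share lower than the 18.2% of all genes. The GTPases Noa1 (-0.67, adjusted p = 5.93e-05) and Eral1 (-0.51, adjusted p = 0.00332) were lower and the helicase Ddx28 higher (0.42, adjusted p = 0.00802). Of 17 translation factors 5 were lower and 0 higher (29.4% lower, median -0.26), among them the elongation factor Tufm with 73.3 CPM in ETV6 WT against 92.4 CPM in ZsGreen cells (-0.33, adjusted p = 0.0172). Mitochondrial tRNA synthetases had 9 lower and 0 higher of 17 (52.9% lower, median -0.32). The smallest adjusted p among them was that of Iars2, with 77.3 CPM in ETV6 WT against 105 CPM in ZsGreen cells (-0.45, adjusted p = 4.37e-05).

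Of 11 genes for mitochondrial transcription and DNA maintenance, 7 were lower and 1 higher (63.6% lower, beside 18.2% of all genes, median -0.40). Tfam, which packages mitochondrial DNA and starts its transcription, averaged 42.3 CPM with ETV6 WT against 62.2 CPM with ZsGreen (-0.56, adjusted p = 5.96e-05). Of 15 mitochondrially encoded genes 14 were tested, and 4 were lower and 0 higher (28.6% lower, median -0.18). They include mt-Rnr1, the ribosomal RNA of the small subunit, with 109 CPM in ETV6 WT against 161 CPM in ZsGreen cells (-0.57, adjusted p = 0.0112), though RNA without a long poly-A tail is poorly sampled after poly-A selection. Of 11 regulators of mitochondrial genes 10 were tested, and 3 were lower and 1 higher (30% lower, median -0.13). Myc stood at 112 CPM in ETV6 WT against 188 CPM in ZsGreen cells (-0.75, adjusted p = 2.32e-06), and the ETS factor Gabpa at 60.0 CPM in ETV6 WT against 74.5 CPM in ZsGreen cells (-0.31, adjusted p = 0.00344), while its partner Gabpb1 was higher (0.38, adjusted p = 0.00305).

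The proteins this ribosome serves, and those of the cytosolic ribosome, were set beside it. Of 77 tested nuclear-encoded respiratory chain subunits, 45 were lower and 1 higher with ETV6 WT over ZsGreen (58.4% lower, median -0.31), and of 78 cytosolic ribosomal protein genes 43 were lower and 1 higher (55.1% lower, median -0.24). The mitochondrial ribosomal protein genes had 57.1% lower and a median of -0.35. With P214L over ZsGreen the counts were 1 lower and 0 higher for the respiratory chain and 0 and 0 for the cytosolic ribosome. Differences between these lists were not tested.

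Markers of other blood cells also differed between the constructs, not always in the pattern of the mitochondrial ribosomal protein genes. Of 12 neutrophil and monocyte markers 8 were tested, and 7 were lower and 0 higher with ETV6 WT or I209S P214L over ZsGreen, and 0 lower and 4 higher with P214L. Their summed level was 3.14 to 6.38 CPM with I209S P214L, 119 to 167 CPM with P214L, 5.56 to 7.75 CPM with ETV6 WT and 43.2 to 49.1 CPM with ZsGreen, and Csf3r and Ly6g, which mark neutrophils, were at 0 in all libraries. Ptprc, the leukocyte antigen CD45, averaged 729 CPM with I209S P214L, 460.1 CPM with P214L, 690 CPM with ETV6 WT and 331 CPM with ZsGreen. Of 9 tested erythroid and megakaryocyte markers 3 were lower and 3 higher with ETV6 WT over ZsGreen. Of 4 mast cell and basophil markers 1 was lower and 2 higher there, and the 1 tested T lineage marker was not called. For all genes, the shares over ZsGreen were 18.2% lower and 19.5% higher with ETV6 WT. They were 20.7% and 20.8% with I209S P214L, and 1.61% and 3.47% with P214L. The part of these markers in the fall of the mitochondrial ribosomal protein genes was not tested.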

How the data were processed

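Poly-A selected RNA was sequenced, per the labels' protocols, from 12 libraries, 3 in each of 4 groups taken from the labels. Per the submitters' processing notes, HISAT2 2.0.5, featureCounts 1.5.0-p3 and the build mm39 were used; strandedness and annotation release are not given in the sources used here. The authors deposited raw counts per gene, which were used for all tests, and FPKM values, which were used to compare levels between genes. Total counts per library were 14301683 to 18607595. Lengths, positions and symbols are those of the deposited table.

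In R 4.3.3, genes were kept by filterByExpr of edgeR 4.0.16 (14794 genes), scaled by TMM and fitted with a quasi-likelihood model of 1 mean per group over all 12 libraries. P-values were adjusted after Benjamini-Hochberg over all of these genes, and those under 0.05 were called. On counts simulated for ETV6 WT against ZsGreen (14385 genes in the fit), edgeR recovered 67% of genes changed 1.5-fold and 93% of those changed 2-fold. The simulation changed 200 genes, none of them at a low level, while 5580 genes were called in the real comparison. These shares therefore do not give the recovery in the real data, and changes under 1.5-fold were not simulated. No 2 libraries of a group agreed within sampling noise. DESeq2 1.42.0, limma-voom (limma 3.58.1), other scalings, no filter, only the 2 groups compared, a replicate block and libraries left out were tried as alternatives. Leaving out 18S and mitochondrially encoded genes was added after seeing the data.

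The genes and gene lists were chosen with earlier results of these data known. The rule for genes followed by name took the 5 lowest and 5 highest among those called in ETV6 WT over ZsGreen and in I209S P214L over ETV6 WT, any called against the direction of most, up to 5 called between P214L and ZsGreen, the 4 highest and 4 lowest by FPKM, and a set by role (stalk, decoding, release, tunnel exit, S18 relatives, and names that differ from the place). From other lists at most 3 genes with the smallest adjusted p were named. Mrpl2, Mrpl14, Mrpl16, Mrpl18, Mrpl22, Mrpl24, Mrpl30, Mrpl32, Mrpl43, Mrpl51, Mrps5, Mrps11, Mrps22, Mrps28 and Mrps34 were added after their values were seen.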

Additional observations from a re-analysis of the deposited data

How the results depend on the processing

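No fold change of the genes followed by name reversed a call under any alternative run. The count of genes called with P214L over ZsGreen, 0 as reported, was 1 with DESeq2, and 1 again when ZsGreen 1, ETV6 WT 1 and I209S P214L 1 were all left out, each time Mrps34 (adjusted p = 0.0365 and 0.0487); the cause was not tested. Leaving out 1 library at a time gave 38 to 47 genes called with ETV6 WT over ZsGreen, 40 to 52 with I209S P214L over ZsGreen, 0 to 0 with P214L over ZsGreen, 20 to 30 with P214L over ETV6 WT, 0 to 0 with I209S P214L over ETV6 WT, 24 to 39 with I209S P214L over P214L, and 41 to 46 for any difference. Other alternatives gave 40 to 49, 44 to 54, 0 to 1, 25 to 36, 0 and 29 to 43 for the 6 comparisons in the same order, and 43 to 51 for any difference. The summed levels moved by less than the SD of their group under the other scalings.

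With the replicate number as a block, the counts were 49 for ETV6 WT over ZsGreen, 54 for I209S P214L over ZsGreen, 0 for P214L over ZsGreen, 30 for P214L over ETV6 WT, 0 for I209S P214L over ETV6 WT and 39 for I209S P214L over P214L. Same-numbered libraries correlated by -0.061 to 0.528 in their deviations from the group means, with 2 of 18 pairs over 0.1. Both were pairs of ETV6 WT with I209S P214L, 0.528 for the libraries numbered 1 and 0.254 for those numbered 3. Pairs with different numbers ran from -0.392 to 0.161, with 2 of 36 over 0.1. The labels name no pairing, so the main fit has no block. Whether ETV6 WT and I209S P214L share an effect by number was not tested.

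Over all genes, P214L over ZsGreen gave 751 calls as reported, 1188 with DESeq2, and 369, 489 and 390 without P214L 1, 2 and 3. I209S P214L over ETV6 WT gave 5 as reported, 23 with DESeq2, 38 without a filter, 8 without the 3 first libraries, and 3 with limma-voom or only the 2 groups compared; it gave 1 without ETV6 WT 2, ETV6 WT 3, I209S P214L 2 or I209S P214L 3. With 3 libraries a group, the median SE of a log2 fold change was 0.12, which sets the size of difference that could be called. Intervals and limits cover counting error or the spread between libraries only.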
